A study of Saccharomyces cerevisiae with 3 samples.

Results

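The 61 genes described here encode enzymes of amino acid biosynthesis in Saccharomyces cerevisiae, with methionine and cysteine left out, among 5543 named genes on the array. They were picked out by a rule on symbols: a symbol made of 1 of 13 pathway prefixes (ARG, HIS, ILV, LEU, LYS, TRP, ARO, SER, HOM, THR, PRO, ASN or BAT) and a number, without the 6 regulator genes ARG80, ARG81, ARG82, LEU3, LYS14 and ARO80. That rule was set with earlier results of these data known, so shares of these genes beside all genes tested are description only. A value was present on all 3 arrays for 54 of the 61, and these were tested. The other 7 (ARG2, ARG7, ARG8, ARO7, HIS3, LEU5 and TRP1) had no value on replicate 3. A few of the 61 are not plain biosynthetic enzymes. ARO9 and ARO10 serve the breakdown of aromatic amino acids and BAT2 that of branched-chain amino acids, and LEU5 encodes a mitochondrial carrier needed for coenzyme A in that organelle. For ARO5 (YGL117W) only its name is given here.

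Each of the 3 two-colour arrays set RNA of a W303 culture with WAR1K762R behind the GAL1 promoter against RNA of a W303 culture with WAR1 behind the same promoter. War1 is the zinc cluster activator of the weak acid response, and K762R in the mutant's name stands for arginine in place of a lysine. Cultures were kept at 30 °C in a rich, 2% raffinose medium until the OD600 was 0.8, then given 2% galactose for 1 h; the labels name no weak acid. The promoter drives both forms in galactose, but ratios of War1K762R over War1 do not show the level of either form. The sources used here do not say whether the native WAR1 gene was still present. By the source names, Cy5 marked the mutant on replicates 1 and 2, and replicate 3 was the dye swap. For the first pair of arrays another label, on treatment, gives the mutant under Cy3; the source names were followed. Values are log2 ratios of War1K762R over War1 with the median of each array set to 0. This direction is likely, not certain, since the formula of the scanner ratio is unstated and was taken as Cy5 divided by Cy3. If it was the inverse, all signs below turn. If the treatment label was right instead of the source names, only the signs of replicates 1 and 2 turn, and the means and p-values change. The design text calls the arrays biological repeats, so the SD of a gene below is the spread between 3 pairs of cultures. The p-values and intervals of limma do not rest on that spread alone. They also use the variances of all genes tested, toward which the variance of each gene was drawn. An interval can therefore be narrower than the 3 arrays of that gene alone would give. The spread between arrays also holds the dye orientation, which was swapped on replicate 3 and is not in the main fit.

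Yeast makes every amino acid that proteins need, and most of the enzyme genes are under general control by the activator Gcn4, which is itself raised by translation when uncharged tRNA accumulates. Pathway regulators act on top of this: Leu3 with the intermediate alpha-isopropylmalate on leucine, isoleucine and valine genes, Lys14 with an intermediate of the lysine pathway, the Arg80, Arg81 and Mcm1 complex on arginine genes, and Aro80 on the genes of aromatic amino acid breakdown. Cells in rich medium also import amino acids through permeases.

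Of the 54 genes tested, 0 passed as higher and 0 as lower with War1K762R (limma, adjusted p threshold 0.05 over all genes tested), where 0.363% of the 3579 genes tested passed, 0.335% higher and 0.0279% lower. The lowest adjusted p among them was 0.127. At an unadjusted p under 0.05 (limma), 7 of the 54 genes stood, all of them higher: BAT2, LEU1, ARO10, ASN2, ILV2, BAT1 and LYS1. That share of 13.0% lies near the background, since 13.8% of all genes tested had an unadjusted p under 0.05, 11.1% higher and 2.68% lower. The absence of a call does not show that transcript levels were alike. The 95% interval of limma reached 0.28 to either side of the mean for the median gene of the 54, which is a factor of 1.22 before any adjustment over genes. Larger differences also missed the adjusted threshold, among them a mean of 1.52-fold for BAT2 and one of 1.38-fold for ARO10.

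As a group the genes lay slightly above 0. Their median log2 ratio was 0.18 on replicate 1, 0.13 on replicate 2 and 0.03 on replicate 3, beside 0.07, 0.06 and 0.01 for all genes tested. The median of their means was 0.09, beside 0.05, and 39 of the 54 means were above 0 (72.2%), beside 60% of all genes tested. On all 3 arrays 19 of the 54 were positive (35.2%) and 4 were negative (7.41%), where 24.7% and 13.5% of all genes tested were. With each array centred on the genes tested, 15 of the 54 were positive (27.8%) and 7 negative (13.0%) on all 3 arrays, beside 18.7% and 18.6% of all genes. The means ran from −0.19 for ARO5 to 0.60 for BAT2, and 24 of the 54 lay within 0.1 of 0.

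**Figure D1:**
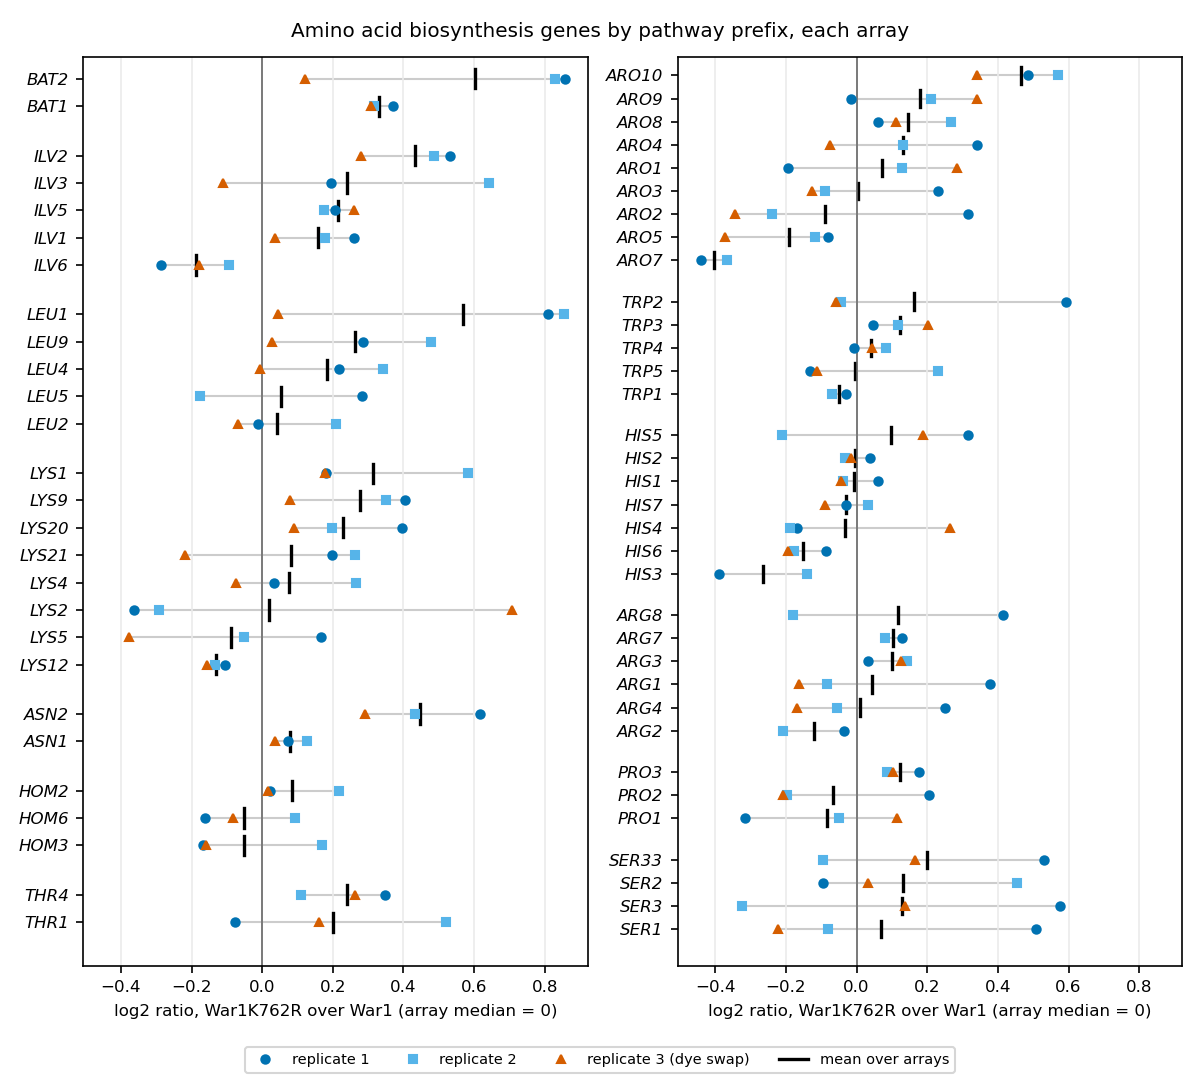
Log2 ratio of War1K762R over War1 (x axis) of the 61 amino acid biosynthesis genes, grouped by prefix and sorted by mean, with 1 symbol per array and a black bar for the mean over the arrays with a value. BAT2, LEU1, ARO10, ASN2 and ILV2 have means of at least 0.4, and most other genes have arrays on both sides of 0 or means close to it.

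The branched-chain amino acids isoleucine and valine are made in mitochondria by shared enzymes, leucine branches off from the valine route, and the BAT aminotransferases close all routes. BAT2 (YJR148W), the cytosolic branched-chain aminotransferase gene, had log2 ratios of 0.86, 0.83 and 0.12 on replicates 1, 2 and 3. It was positive on every array, but the dye swap stood far below the other two. Its mean of 0.60 ± 0.42 (SD, n = 3), a factor of 1.52, was the highest of the 54 and ranked 52 among the 3579 genes tested, and it did not pass (limma, adjusted p = 0.133, 95% interval 0.25 to 0.96). BAT1 (YHR208W), which encodes the mitochondrial aminotransferase, had 0.37, 0.32 and 0.31, a mean of 0.33 ± 0.03 (n = 3, limma, adjusted p = 0.259). Its arrays lay closer together than those of BAT2. The limma interval of BAT1 was still 0.07 to 0.59, because limma draws the variance of each gene toward that of all genes tested. For the same reason the interval of BAT2 does not show the spread of its own 3 arrays alone. The difference of BAT2 from BAT1 was 0.49, 0.51 and −0.19 on the arrays, so it had the opposite sign on the swap (mean 0.27 ± 0.40, n = 3).

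LEU1 (YGL009C), the isopropylmalate isomerase gene, showed the same shape as BAT2, with 0.81, 0.85 and 0.04 on replicates 1, 2 and 3 and a mean of 0.57 ± 0.46 (n = 3, limma, adjusted p = 0.165, 95% interval 0.20 to 0.94). Without replicate 3 both genes passed, BAT2 at a mean of 0.84 (limma, adjusted p = 0.0234) and LEU1 at 0.83 (limma, adjusted p = 0.025), where 0.84% of 5475 genes passed as higher. Over the genes also measured on replicate 3 they did not pass there (limma, adjusted p = 0.0573 for BAT2 and 0.0593 for LEU1). BAT2 and LEU1 were also the 2 genes of the 61 at least 1.5-fold higher on both replicates 1 and 2, beside 0.913% of 5475 genes, and 0 of the 61 were so on all 3 arrays, beside 0.196%. None of the 61 was at least 1.5-fold lower on replicates 1 and 2, beside 0.84%, or on all 3 arrays, beside 0.0279%. With the dye as a second term their means were 0.48 and 0.44.

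The enzymes before the branch varied in sign. ILV2 (YMR108W), the catalytic subunit of acetolactate synthase, had 0.53, 0.49 and 0.28, with all arrays well above 0 and a mean of 0.43 ± 0.13 (n = 3, limma, adjusted p = 0.155, 95% interval 0.16 to 0.70). ILV6 (YCL009C), the regulatory subunit of the same enzyme, had −0.29, −0.09 and −0.18, a mean of −0.19 ± 0.10 (n = 3, limma, adjusted p = 0.501). The array values of the 2 subunit genes did not overlap, ILV2 lying above 0 and ILV6 below on each. Of all genes tested, 24.7% were positive and 13.5% negative on all 3 arrays. The 2 spots of ILV6 differed by 0.42 on replicate 2. ILV5 (YLR355C), the reductoisomerase gene, had a tight 0.21, 0.18 and 0.26 (mean 0.21 ± 0.04, n = 3, limma, adjusted p = 0.438). The dehydratase gene ILV3 spread most, with 0.19, 0.64 and −0.11, and the threonine deaminase gene ILV1 had 0.26, 0.18 and 0.04.

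In the leucine branch the isopropylmalate synthase genes LEU4 and LEU9 had similar ratios on each array. LEU4 had 0.22, 0.34 and −0.01 and LEU9 had 0.29, 0.48 and 0.03 on replicates 1, 2 and 3. LEU9 was higher than LEU4 on 3 of 3 arrays by a mean of 0.08 ± 0.05 (n = 3). LEU2, the isopropylmalate dehydrogenase gene and one of the marker genes that W303 carries in mutant form, had −0.01, 0.21 and −0.07. It was the lowest of the 4 LEU genes tested, with a mean of 0.04 ± 0.15 (n = 3, limma, adjusted p = 0.907). LEU5, measured on 2 arrays, had 0.28 and −0.18, on opposite sides of 0.

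**Figure D2:**
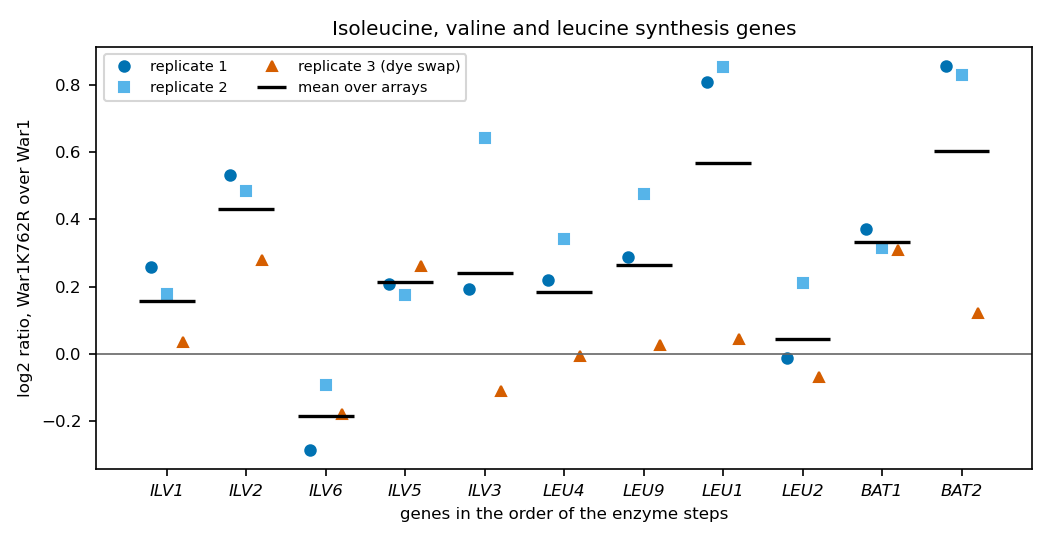
Log2 ratio of War1K762R over War1 (y axis) of 11 branched-chain amino acid genes in the order of the enzyme steps (x axis), with 1 symbol per array and a bar for the mean. LEU1 and BAT2 reach about 0.8 on replicates 1 and 2 and lie at 0.04 and 0.12 on the dye swap, whereas BAT1 and ILV5 lie close together on all 3 arrays and ILV6 lies below 0.

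Medians by prefix were 0.47 for the 2 BAT genes, 0.21 for 5 ILV genes and 0.22 for 4 LEU genes. On replicate 3 alone they were 0.22, 0.04 and 0.01. The 6 genes listed as Leu3 targets (LEU1, LEU2, LEU4, ILV2, ILV5 and BAT1) had a median of 0.27, with array medians of 0.29, 0.33 and 0.15, and 4 of the 6 were positive on all 3 arrays, beside 24.7% of all genes tested. LEU3 itself had −0.31 and −0.07 on replicates 1 and 2 and no value on replicate 3. Of 10 tested enzymes listed as mitochondrial the median was 0.20, with 0.21, 0.29 and 0.01 on the arrays and 0.13 without replicate 2. Since LEU1, LEU2, BAT1 and the ILV genes also stand in the counts above, these lists are no separate evidence.

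The lysine pathway of yeast runs from 2-oxoglutarate through alpha-aminoadipate. LYS20 and LYS21 encode homocitrate synthases, the first step. LYS20 had 0.39, 0.20 and 0.09 on replicates 1, 2 and 3, and LYS21 had 0.20, 0.26 and −0.22. LYS21 was lower than LYS20 on 2 of the 3 arrays, by a mean log2 difference of −0.15 ± 0.19 (n = 3). The last 2 steps, catalysed by the saccharopine dehydrogenases, had the highest means of the pathway. LYS9 (YNR050C) had 0.40, 0.35 and 0.08 with a mean of 0.28 ± 0.17 (n = 3, limma, adjusted p = 0.363), and LYS1 (YIR034C) had 0.18, 0.58 and 0.18 with a mean of 0.31 ± 0.23 (n = 3, limma, adjusted p = 0.321). Both were positive on every array.

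Earlier in the route than LYS9 and LYS1, the aminoadipate reductase gene LYS2 (YBR115C) had −0.36 and −0.29 on replicates 1 and 2 and 0.71 on replicate 3. Its mean of 0.02 therefore hid the widest spread of the 54 genes (SD 0.60, n = 3). LYS5, which encodes the transferase that activates Lys2 with phosphopantetheine, had 0.17, −0.05 and −0.38, with the sign opposite to LYS2 on replicates 1 and 3. LYS4, the homoaconitase gene, had 0.03, 0.26 and −0.07. LYS12, the homoisocitrate dehydrogenase gene, was negative on every array with −0.10, −0.13 and −0.16, a mean of −0.13 ± 0.03 (n = 3, limma, adjusted p = 0.644). The median of 8 LYS genes was 0.08. The 7 genes listed as Lys14 targets had a median of 0.08, with 0.18, 0.26 and 0.08 on the arrays. It was 0.17 without replicate 2, 0.23 without replicate 3 and 0.19 with a dye term. LYS14 had 0.14 and −0.25 on the 2 arrays that measured it.

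Of the aromatic genes, ARO10 (YDR380W), the phenylpyruvate decarboxylase gene of the route from phenylalanine to fusel alcohol, had 0.49, 0.57 and 0.34 on replicates 1, 2 and 3. All arrays, the swap included, stood above 0.3, and the mean was 0.47 ± 0.12 (n = 3, limma, adjusted p = 0.127, 95% interval 0.20 to 0.735), the lowest adjusted p of the 54. The 2 spots of ARO10 differed by 0.50 on replicate 2. The aromatic aminotransferase genes ARO9 and ARO8 had means of 0.18 ± 0.18 and 0.15 ± 0.11 (n = 3). ARO9 had −0.02, 0.21 and 0.34 on the arrays and ARO8 0.06, 0.27 and 0.11. The pair listed as Aro80 targets, ARO9 and ARO10, had a median of 0.32, and ARO80 had −0.20, 0.22 and −0.18.

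The enzymes that build the aromatic ring were near 0 or mixed. ARO3 and ARO4 encode the isozymes of the first step. ARO3 had 0.23, −0.09 and −0.13, and ARO4 had 0.34, 0.13 and −0.07. ARO4 was higher than ARO3 on 3 of 3 arrays by a mean of 0.13 ± 0.09 (n = 3). The gene next to ARO4 on its chromosome is HIS7, another of the 61 genes, which had −0.03, 0.03 and −0.09. ARO1, the pentafunctional enzyme gene, had −0.19, 0.13 and 0.29, and the chorismate synthase gene ARO2 had 0.32, −0.24 and −0.34, so that these successive steps went in opposite directions over the arrays. The chorismate mutase gene ARO7 had −0.44 and −0.37 on replicates 1 and 2, the lowest mean of the 61 at −0.40, and was not called over these 2 arrays (limma, adjusted p = 0.204). ARO5 was negative on every array with −0.08, −0.12 and −0.37 (mean −0.19 ± 0.16, n = 3, limma, adjusted p = 0.507).

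Of the tryptophan genes, TRP3, whose product is part of anthranilate synthase, had 0.05, 0.12 and 0.20 on replicates 1, 2 and 3. Its partner subunit gene TRP2 had 0.59, −0.05 and −0.06, so that replicate 1 alone set its mean of 0.16 ± 0.37 (n = 3, limma, adjusted p = 0.655), which was −0.05 without that array. TRP4, the phosphoribosyltransferase gene, lay at −0.01, 0.08 and 0.04. TRP5, the tryptophan synthase gene, had −0.13, 0.23 and −0.11, on both sides of 0. TRP1, a marker gene of W303, had −0.03 and −0.07 on 2 arrays. The median of 4 TRP genes tested was 0.08.

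The 6 histidine genes tested had a median of −0.02 and a median SD of 0.06, beside 0.20 for all genes tested. HIS1 and HIS2, the genes of the first step and of histidinol phosphatase, had means of −0.01 and −0.0035. HIS6, the isomerase gene, was negative throughout with −0.09, −0.18 and −0.20 (mean −0.15 ± 0.06, n = 3, limma, adjusted p = 0.586). HIS4, which encodes an enzyme of several steps and is a classic Gcn4 target, had −0.17, −0.19 and 0.26, with the sign of the swap opposite to the others. HIS5, the aminotransferase gene, had 0.31, −0.21 and 0.19. HIS3, another W303 marker, had −0.39 and −0.14 on the 2 arrays that measured it.

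Among the ASN, HOM and THR genes, of the aspartate family, the asparagine synthetase gene ASN2 had the highest mean, without passing. ASN2 (YGR124W) had 0.62, 0.43 and 0.29 on replicates 1, 2 and 3, a mean of 0.45 ± 0.16 (n = 3, limma, adjusted p = 0.15, 95% interval 0.17 to 0.72). Its isozyme gene ASN1 (YPR145W) had 0.07, 0.13 and 0.04, a mean of 0.08 ± 0.05 (n = 3, limma, adjusted p = 0.801). The groups of 3 values did not overlap, and the difference of ASN2 from ASN1 was 0.54, 0.31 and 0.26, positive on 3 of 3 arrays with a mean of 0.37 ± 0.15 (n = 3). The differences of this and the other isozyme pairs were not tested, and cross-hybridisation between the paired genes was not checked.

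The common trunk from aspartate to homoserine gave means of −0.05 for the aspartate kinase gene HOM3, 0.09 for HOM2 and −0.05 for the homoserine dehydrogenase gene HOM6. All 3 of these genes were highest on replicate 2, at 0.17, 0.22 and 0.09. The threonine genes lay higher than the trunk. THR4, the threonine synthase gene, had 0.35, 0.11 and 0.26 (mean 0.24 ± 0.12, n = 3, limma, adjusted p = 0.402), and the homoserine kinase gene THR1 had −0.08, 0.52 and 0.16 (mean 0.20 ± 0.30, n = 3). The medians were −0.05 for HOM and 0.22 for THR.

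Serine genes followed single arrays. SER3 and SER33 encode the isozymes of phosphoglycerate dehydrogenase. SER3 had 0.58, −0.33 and 0.14 on replicates 1, 2 and 3, and SER33 had 0.53, −0.09 and 0.16. The transaminase gene SER1 had 0.51, −0.08 and −0.22. These 3 genes were above 0.5 on replicate 1 and below 0 on replicate 2, whereas the phosphatase gene SER2 had −0.10, 0.45 and 0.03. The median of the 4 genes went from 0.52 on replicate 1 to −0.09 on replicate 2, and the mean of SER1 went from 0.07 to −0.15 and that of SER3 from 0.13 to −0.09 without replicate 1. The difference of SER33 from SER3 was 0.07 ± 0.14 (n = 3).

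Among the arginine genes, ARG1, the argininosuccinate synthetase gene, had 0.38, −0.08 and −0.16, and ARG4, the gene of the lyase that follows it, had 0.25, −0.06 and −0.17. Both were positive on replicate 1 and negative on the other arrays. ARG3, the ornithine carbamoyltransferase gene, had 0.03, 0.14 and 0.13 (mean 0.10 ± 0.06, n = 3, limma, adjusted p = 0.73). Of the early, mitochondrial steps, ARG8 had 0.41 and −0.18, ARG2 −0.03 and −0.21, and ARG7, the ornithine acetyltransferase gene, 0.13 and 0.08 on replicates 1 and 2. The 2 tested genes of the arginine repressor list, ARG1 and ARG3, had a median of 0.07. Proline genes had small means: PRO3, the reductase gene of the last step, had 0.18, 0.09 and 0.10, PRO2 had 0.21, −0.20 and −0.21, and the glutamate kinase gene PRO1 had −0.32, −0.05 and 0.11.

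**Figure D3:**
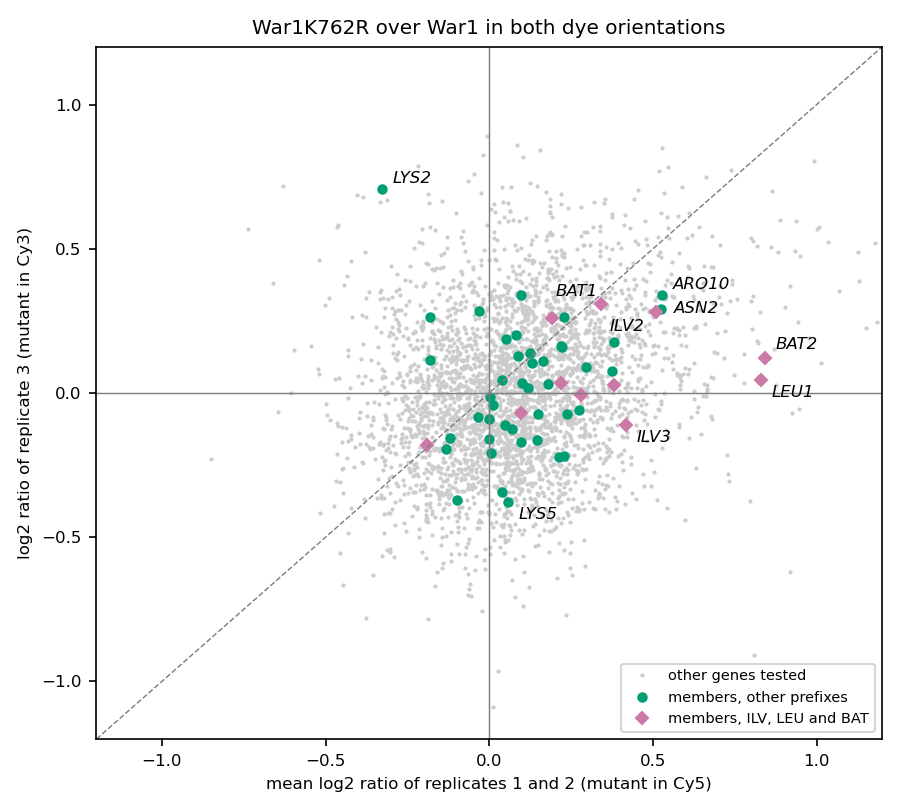
Mean log2 ratio of replicates 1 and 2, with the mutant in Cy5 (x axis), against the log2 ratio of replicate 3, with the mutant in Cy3 (y axis), for the 54 tested amino acid biosynthesis genes (coloured) and the other genes tested (grey); the dashed line marks equal values, and 8 genes beyond 1.2 on an axis are not shown. BAT2 and LEU1 lie far right and near 0 on the y axis, LYS2 lies upper left, and ARO10, ASN2, ILV2 and BAT1 are positive on both axes.

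The lists of related synthesis genes, regulators and permeases that follow were chosen with earlier results of these data known. Their shares beside the background are therefore description only. Of 22 related synthesis genes outside the prefixes, 19 were analysed here and 16 were tested. None of the 16 passed as higher or lower, beside 0.363% of all genes tested, and 5 had an unadjusted p under 0.05 (limma), all of them higher, beside a background of 11.1%. Their median was 0.13. The highest was IDP1, the mitochondrial isocitrate dehydrogenase gene that supplies 2-oxoglutarate and NADPH, with 0.74, 0.87 and 0.22 on replicates 1, 2 and 3 and a mean of 0.61 ± 0.34 (n = 3, limma, adjusted p = 0.117). It passed without replicate 3 (0.80, limma, adjusted p = 0.0293) and over genes on at least 2 arrays (limma, adjusted p = 0.0448), but not without replicate 3 on the same genes (limma, adjusted p = 0.0717). GDH1, the NADPH glutamate dehydrogenase gene, named after its values were seen, had 0.68, 0.68 and 0.06. It thus had the shape of LEU1 and BAT2, with the swap near 0. The lowest was the glutamine synthetase gene GLN1, with −0.51, 0.12 and −0.44 and a mean of −0.28 ± 0.34 (n = 3, limma, adjusted p = 0.426).

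Of 19 regulator genes 10 were tested, with a median of 0.07 that was 0.03 without replicate 3. None of the 10 passed, beside 0.363% of all genes tested, and 2 had an unadjusted p under 0.05 (limma), both higher, beside a background of 11.1%. GCN4 (YEL009C), named for its role, had 0.31, −0.20 and 0.09 on replicates 1, 2 and 3, a mean of 0.07 ± 0.25 (n = 3, limma, adjusted p = 0.859). Its control is mostly translational, which these arrays do not measure. PCL5, the cyclin gene that promotes Gcn4 turnover, had the highest mean of the 10, with 0.49, 0.63 and 0.11 (mean 0.41 ± 0.27, n = 3, limma, adjusted p = 0.24). STP1, an activator of permease genes, had the lowest of the 10, with −0.36, −0.27 and −0.0046 (mean −0.21 ± 0.19, n = 3, limma, adjusted p = 0.467). ARG81, named after its values were seen, had 0.25, 0.06 and 0.84, with the swap far above the rest. On replicate 3 the values of ARG81 and of STP1 each came from 1 spot.

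Amino acid permeases bring in what the biosynthetic routes would otherwise make. With the sensor gene SSY1 the list of their genes had 19 genes and 16 were tested, of which 0 passed, beside 0.363% of all genes tested. Their median was 0.31, with array medians of 0.12, 0.48 and 0.25, and was 0.20 without replicate 2. At an unadjusted p under 0.05 (limma) stood 8 of the 16, all higher, beside a background of 11.1%, and 10 of the 16 were positive on all 3 arrays, beside 24.7% of all genes tested. BAP2, a permease gene for branched-chain amino acids, was highest, with 0.53, 1.28 and 0.30 and a mean of 0.70 ± 0.52 (n = 3, limma, adjusted p = 0.123). It passed without replicate 3 (0.91, limma, adjusted p = 0.0402) and over genes on at least 2 arrays (limma, adjusted p = 0.0439), but not without replicate 3 on the same genes (limma, adjusted p = 0.116). Named after their values were seen, TAT1, a permease gene for tyrosine, valine and other amino acids, had 0.47, 0.57 and 0.33, DIP5, of acidic amino acid uptake, 0.82, 0.29 and 0.41, and the proline permease gene PUT4 0.06, 1.19 and 0.33. TAT1 was steady over the arrays, while PUT4 rested mostly on replicate 2. MMP1, a permease gene for S-methylmethionine, was lowest of the tested genes at −0.19 ± 0.06 (n = 3, limma, adjusted p = 0.492), and SSY1 had −0.12, −0.16 and −0.10.

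**Figure D4:**
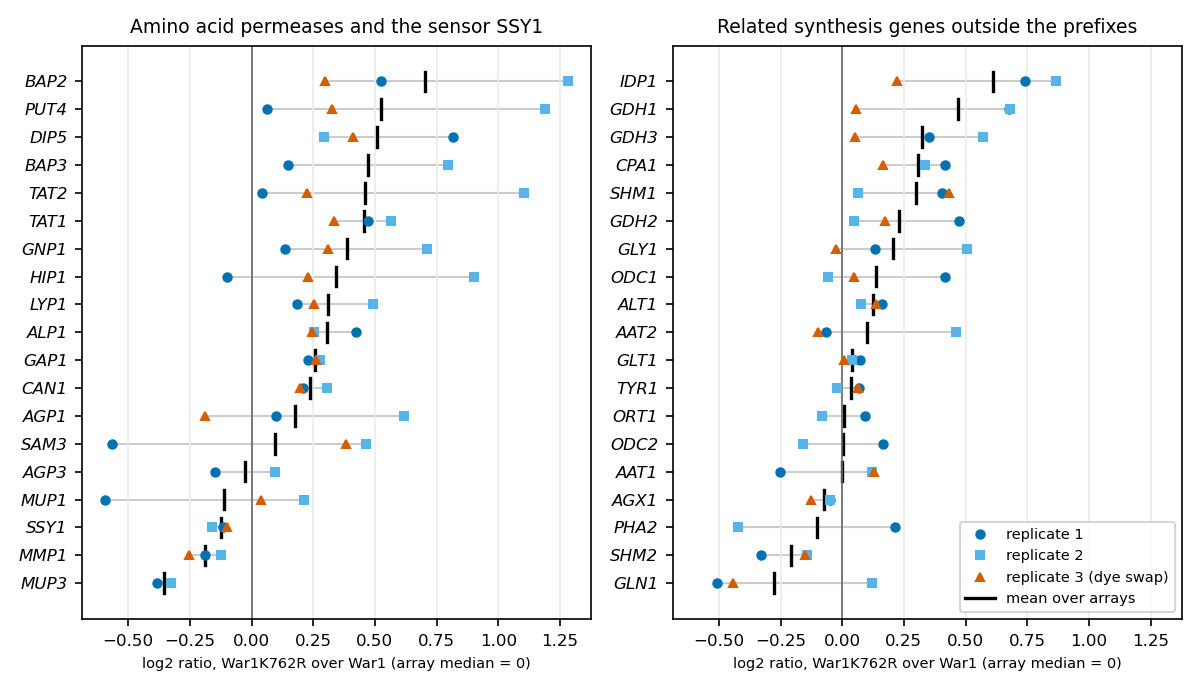
Log2 ratio of War1K762R over War1 (x axis) of the amino acid permease genes with the sensor SSY1 (left) and of related synthesis genes outside the prefixes (right), sorted by mean, with 1 symbol per array and a black bar for the mean. BAP2 and IDP1 have the highest means, 0.70 and 0.61, and replicate 2 is the highest array for BAP2, PUT4 and TAT2.

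The arrays agreed weakly over these genes. Across the 54 tested genes, which share the 3 arrays and are not independent, Pearson's r was 0.356 between replicates 1 and 2, 0.052 between 1 and 3 and 0.233 between 2 and 3 (Spearman's rho 0.229, 0.135 and 0.312). Over all genes tested Pearson's r was 0.311, 0.179 and 0.252. The median SD of a gene between arrays was 0.18 for the 54 and 0.20 for all genes tested. Each of the 61 genes had 2 spots per array, and the SD of a single spot of these genes was 0.06, 0.14 and 0.10 on replicates 1, 2 and 3.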

How the data were processed

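The authors deposited 1 log2 ratio per spot for each of 3 two-colour arrays; the sources used here name no scanner, ratio formula, spot filter or normalization. Intensities were not used. The column of replicate 3 had been inverted before deposit: taking log2 values no further than 0.5 from 0, the linear ratio had 3 decimals, within the rounding, for 100.0% of values of replicates 1 and 2, and for 17.3% of replicate 3 (15.7% by chance) but 100.0% after a change of sign. All columns thus run as War1K762R over War1 if the scanner gave Cy5 over Cy3. Of 13056 spots, 6.0%, 7.2% and 43.6% had no value on replicates 1, 2 and 3; 11146 had 1 gene symbol, several 0 and none 1910. Symbols came from the platform annotation, and all 61 genes were found with the same symbol in the R64 reference table, used for locus tags and neighbours; no genome build is named for the array.

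Each array was centred on its median (−0.27, 0.16 and 0.09 before), spots of a gene were averaged, and the 3579 genes measured on every array were tested against 0 with limma 3.58.1 (R 4.3.3; lmFit and eBayes, two-sided, Benjamini-Hochberg over all genes tested, threshold 0.05), a script tested on simulated data. Without intensities, levels of genes could not be compared. The gene set and lists (related synthesis genes, regulators, permeases, targets of Leu3, Lys14, Aro80 and the arginine repressor, mitochondrial enzymes) were chosen with earlier results of these data known. Genes set out to be named were the 2 highest and 2 lowest means, the highest and lowest of each prefix, isozyme pairs, genes on one side of 0 on all arrays, and the ends of each list. For some of these only array values or means are given above. Motif and protein comparisons that had been planned were not made, since no sequences were used here. Alternatives were leaving out each array, genes on at least 2 arrays, 2 other centrings, 2 spot filters, a dye term and array weights. The number of arrays limits the precision.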

Additional observations from a re-analysis of the deposited data

How the results depend on the processing

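The 3 arrays and the missing values of replicate 3 set the limits here. Over 11 other settings the count of amino acid biosynthesis genes that passed as higher stayed at 0, except without replicate 3 over all genes on the other arrays, where it was 2 (BAT2 and LEU1), so leaving out each replicate gave 0 to 2; the count lower was 0 in all 11. The number of all genes that passed as higher, 12, ranged from 1 to 46 when replicates were left out, and was 67 for genes on at least 2 arrays, 3 with centring on the genes tested, 25 with no centring, 2 with a dye term and 24 with array weights. The number lower, 1, ranged from 1 to 34 and was 50 for genes on at least 2 arrays. The cause was not tested. The median of the 54 tested genes ranged from 0.05 with centring on the genes tested to 0.12 without replicate 3 on the same genes. Some medians by prefix changed sign: ARG became −0.11 without replicate 1, −0.0084 with a dye term and −0.0011 with centring on the genes tested, SER −0.03, HOM 0.0053 and PRO 0.03 without replicate 1, PRO 0.0054 without replicate 3, and HIS 0.0096 without replicate 2 and 0.0003 without replicate 3. Of the list medians, that of the Lys14 targets ranged from 0.04 with centring on the genes tested to 0.23 without replicate 3, that of the regulators from 0.0089 for genes on at least 2 arrays to 0.08 with a dye term, that of the permeases from 0.20 without replicate 2 to 0.36 without replicate 1, and that of the related synthesis genes from 0.09 with centring on the genes tested to 0.19 without replicate 3 on the same genes.

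Of 634 recomputed means of named genes 6 newly passed, and 23 others changed sign without passing. Leaving out each replicate in turn gave means from −0.112 to 0.097 for ARG4, −0.108 to 0.071 for ARO3, −0.011 to 0.252 for HIS5, −0.163 to 0.0053 for HOM3, −0.041 to 0.099 for LEU2, −0.010 to 0.230 for LYS21, −0.182 to 0.032 for PRO1, −0.151 to 0.213 for SER1, −0.094 to 0.357 for SER3, −0.051 to 0.274 for TRP2, −0.122 to 0.060 for TRP5 and −0.053 to 0.200 for GCN4. The sign turned without replicate 2 for LEU2 and LYS21, without replicate 1 for the others and also without replicate 3 for TRP5 (0.049, on the same genes too). With centring on the genes tested the means were −0.036 for ARG4, −0.040 for ARO3 and −0.0018 for LEU2, with a dye term −0.036 for ARG4, −0.028 for ARO3 and −0.0045 for SER1, with array weights −0.0038 for ARO3 and 0.036 for TRP5, and with no centring −0.0016 for ARO3. Each array holds both strains and gives 1 ratio, so the test of these ratios against 0 already pairs the strains within an array.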

Other observations

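Replicate 3, the dye swap, gave the lowest of the 3 ratios for 32 of the 54 tested amino acid biosynthesis genes (59.3%) and the highest for 7 (13.0%), beside 44.1% and 25.6% of all genes tested. Fitted with a dye term, the dye coefficient, positive where the ratio is larger with the mutant in Cy5, was 0.39 for LEU1 and 0.36 for BAT2. LYS2 was the opposite case, with a coefficient of −0.52 that ranked 9 of 3579 from the most negative. Its 2 spots differed by 0.04, 0.40 and 0.07 on replicates 1, 2 and 3, less than the gap between the arrays. HIS4 had −0.22. In 8 of the 54 genes replicates 1 and 2 had one sign and replicate 3 the other. Of the 54, 44.4% were positive and 13% negative on both replicates 1 and 2, and 35.2% and 7.41% on all 3 arrays. Of all genes tested, 41.3% and 22% were so on replicates 1 and 2, and 24.7% and 13.5% on all 3. Dye and culture cannot be told apart on these arrays, because 1 array holds the swapped orientation. With the dye term the means were 0.43 for ARO10, 0.41 for ASN2, 0.39 for ILV2 and 0.33 for BAT1. Those of BAT2 and LEU1 were 0.48 and 0.44, so these 2 genes were not lower than the other 4 there.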
